A study of Mus musculus with 2 samples.

Results

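The Notch genes measured here were the receptor genes Notch1, Notch2, Notch3 and Notch4, the ligand genes Jag1, Jag2, Dll1 and Dll4, and the target genes Hes1 and Hey1. They were taken by gene symbol from the deposited expression table, which held all 10 of them among its 14678 genes. Whole uteri at gestation day 2.5 were profiled by digital gene expression (DGE), which sequences short tags and counts how many copies of a tag belong to each gene. All mice were double transgenic, VEGFtetO/tetO with the beta-AKtg/wt transgene: tet operator copies sit in both VEGF promoters, and a tetR-Krab repressor is driven by the β-actin promoter, which is active in most tissues. Dox+ mice stayed on chow with doxycycline, which takes the repressor off the promoter and leaves VEGF expressed. Dox− mice were littermates moved to chow without doxycycline at 3 to 4 weeks of age, so that VEGF repression was not confined to the uterus, and both groups were analysed at 9 to 10 weeks. The label of the Dox+ group reads wild type, but these mice carry the same alleles and transgene as the Dox− mice, and they differ from them in doxycycline itself as well. RNA of 3 uteri was pooled into 1 library for each condition. The study asked which uterine genes respond to VEGF before implantation.

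Notch receptors bind ligands of the Jagged and Delta-like families on neighbouring cells and are then cut. The freed intracellular part joins Rbpj and Mastermind proteins in the nucleus to switch on repressors of the Hes and Hey families. In sprouting vessels VEGF is known to induce Dll4 in the leading tip cells, and the Notch signal it sends restrains neighbouring cells from becoming tips. In the uterus Notch receptors and ligands are known from endothelium, vessel wall, epithelium and stroma, and Notch1 has a known role in decidualization.

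The Dox+ library held 5985925 clean tags and the Dox− library 5844314, and 74.1% and 72.2% of them were counted on genes. With 1 library per condition no difference had a replicate check, and the 3 uteri of a pool are not separate measurements. The 95% intervals given with all values are exact and cover counting error only, so they say how well a tag ratio between these libraries is known and not how far uteri vary. Vegfa, the repressed gene, had 247 copies in Dox+ and 125 in Dox−, a fold change of 1.93 downwards (1.55 to 2.41). Over the 6547 genes with at least 200 copies in both libraries together the median log2 ratio, Dox− over Dox+, was 0.03. A gene was called when it had these 200 copies, a fold change of at least 1.5 and an FDR below 0.05 in the two-sided Audic-Claverie test, which compares the libraries and not the conditions. By this rule 15.2% of the 6547 genes were called higher and 14.7% lower in Dox−, 29.9% in all.

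Of the 10 Notch genes, Hes1 and Notch1 reached 200 combined copies, and Hes1 was called higher. No Notch gene was called lower. The remaining 8 had 28 to 143 combined copies and were read from their intervals. Over all 10 genes, the interval of the fold change lay above 1 for Notch1, Dll4 and Hes1, and below 1 for Notch3, Jag1 and Dll1. Among the 12079 genes with at least 20 combined copies, 28.5% had an interval above 1 and 26.2% below 1, 54.7% together, so that 3 of 10 in each direction was close to the share of all genes. The Notch genes thus did not stand apart from the table by how many of them differed, and they did not move one way: their median log2 ratio was -0.23 against 0.03 over those 12079 genes.

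**Figure D1:**
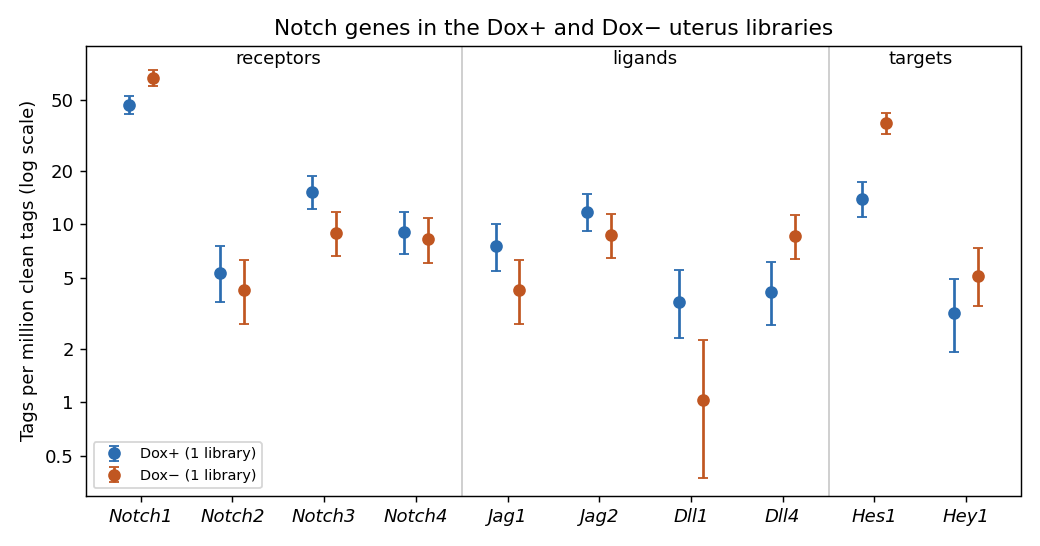
TPM (log axis) of the 10 Notch genes, with 1 point per library, Dox+ in blue and Dox− in orange, and bars for exact 95% Poisson intervals of the count. Hes1 stands at 13.9 in Dox+ and 36.8 in Dox−, the widest gap relative to its bars. The bars of Notch2, Notch4, Jag1, Jag2 and Hey1 overlap between the libraries.

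The promoters of the ligand genes Dll4 and Jag1 are shown because these ligands had ratios in opposite directions, and because the Hes and Hey proteins made from the target genes are known to bind the letters CACGNG. The sequences are the 250 bases before the gene start in RefSeq (GRCm38.p6), written 5′ to 3′ on the gene's strand, with CACGNG on either strand in capitals. Dll4 is at chr2:119325534-119325783 on the plus strand and Jag1 at chr2:137116521-137116770 on the minus strand.
Dll4: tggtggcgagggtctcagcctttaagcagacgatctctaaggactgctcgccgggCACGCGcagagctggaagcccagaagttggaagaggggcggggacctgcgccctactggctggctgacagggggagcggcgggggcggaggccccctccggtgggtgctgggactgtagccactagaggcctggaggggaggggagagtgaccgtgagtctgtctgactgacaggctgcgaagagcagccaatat
Jag1: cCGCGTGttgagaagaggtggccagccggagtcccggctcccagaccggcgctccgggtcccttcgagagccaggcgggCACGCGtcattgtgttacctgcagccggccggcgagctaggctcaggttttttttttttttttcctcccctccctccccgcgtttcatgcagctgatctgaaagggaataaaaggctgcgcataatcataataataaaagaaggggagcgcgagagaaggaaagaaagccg
The Dll4 window held the letters once, starting 195 bases before the gene start, and the Jag1 window held them at 249 and 171 bases before it. Of the Notch genes, 8 had an entry in the promoter table, with 9 starts in all, and 5 of the 8 held CACGNG: Dll4, Jag1, Dll1, Notch2 and Notch3. The same letters were found in 23.5% of 32851 promoter windows of equal length. The core letters TGGGAA of an Rbpj site, searched on both strands, were in none of the 9 windows and in 21.6% of all windows. These are matches of letters in a short window, and they say nothing about binding by a factor. No sequence is shown for Hes1 and Hey1.

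Notch1, the receptor studied most widely, had the most copies of the 10 genes and was somewhat higher in Dox−. Notch1 (Entrez ID 18128, NCBIM37 chromosome 2, 26313423 to 26372183, minus strand) had 279 copies in Dox+ and 388 in Dox−, or 46.6 and 66.4 TPM, tags per 1000000 clean tags. The fold change was 1.42 (1.22 to 1.67), below the 1.5 needed for a call, although the interval lay above 1. The study's methods set the cutoff at an absolute log2 ratio above 0.5, and its results at a fold of 1.5. With a log2 ratio of 0.51, Notch1 was called higher by the former and not by the latter. At the 3′ end of Notch1 the GENCODE annotation places the noncoding genes 0610009E02Rik and Gm13568 on the opposite strand. Tags of both strands were collected, and whether the deposited counts hold sense tags alone is not given in the sources used here. If they do not, tags from the shared stretch (26313423 to 26314910) cannot be told apart. Ranked by copies, Notch1 was at percentile 78.8 in Dox+ and 85.0 in Dox−, each over the genes detected in that library.

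Notch3, the receptor of pericytes and vascular smooth muscle cells, was the receptor lower in Dox− beyond counting error. It had 91 copies in Dox+ and 52 in Dox−, or 15.2 and 8.90 TPM, and was 1.71-fold lower (1.20 to 2.45). With 143 combined copies it was under the minimum for a call. Notch3 (chromosome 17, 32257765 to 32303825, minus strand) shares part of its span with Gm17276 on the other strand, where the same limit holds.

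Notch4, an endothelial receptor, and Notch2, a broadly expressed one, did not differ beyond counting error. Notch4 (chromosome 17, 34701213 to 34725448, plus strand) had 54 copies in Dox+ and 48 in Dox−, a ratio of 0.910 (0.604 to 1.37). Its span holds the pseudogene Gm20462 on the opposite strand, where the limit given for Notch1 holds. For Notch2 (chromosome 3, 97817461 to 97954290, plus strand) there were 32 and 25 copies, a ratio of 0.80 (0.455 to 1.39). Both intervals are wide, and a difference inside them was not detectable at this depth. The 4 receptors together had 456 copies in Dox+ and 513 in Dox−, and Notch1 made up most of this sum in both libraries.

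The Delta-like ligands Dll4 and Dll1 differed in opposite directions. Dll4, the ligand of tip cells and arteries (chromosome 2, 119151520 to 119161698, plus strand), had 25 copies in Dox+ and 50 in Dox−, or 4.18 and 8.56 TPM, a ratio of 2.05 (1.24 to 3.46). Gm14207, a noncoding gene of the opposite strand that overlaps the start of Dll4, had 2 and 3 copies. Dll1 (chromosome 17, 15504318 to 15513836, minus strand), the ligand of somites and many differentiating tissues, went the other way, with 22 copies in Dox+ and 6 in Dox−, or 3.68 and 1.03 TPM. It was 3.58-fold lower, and the interval from 1.41 to 10.8 shows how little 6 copies can settle. Dll1 shares part of its span (15511964 to 15513836) with A930024N18Rik, a noncoding gene of the opposite strand, where the limit given for Notch1 holds. The Dox+ library held 1.14 copies of Dll4 for each copy of Dll1, and the Dox− library 8.33, a ratio of 7.33 between the libraries (2.43 to 24.5). This comparison within each library does not depend on the library size, but the pair was chosen after its values were seen.

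Both Jagged ligands had fewer copies in Dox−, and for Jag1 the interval lay just below 1. Jag1 (chromosome 2, 136907192 to 136942380, minus strand), which vessels, epithelia and smooth muscle use, had 45 copies in Dox+ and 25 in Dox−, or 7.52 and 4.28 TPM. It was 1.76-fold lower (1.05 to 2.99). Jag2 (chromosome 12, 114146801 to 114167706, minus strand) had 70 and 51 copies, a ratio of 0.746 (0.510 to 1.09), which did not differ beyond counting error. Jag1 outnumbered Dll4 in the Dox+ library, with 0.556 copies of Dll4 per copy of Jag1, and Dll4 outnumbered Jag1 in the Dox− library with 2 copies per copy of Jag1. The change in this balance was 3.60-fold (1.72 to 7.57), again for a pair chosen after seeing the values. Since the opposite changes cancel, the 4 ligands together had 162 copies in Dox+ and 132 in Dox−, a ratio of 0.835 (0.658 to 1.06).

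Hes1, the repressor that is the textbook readout of Notch signaling, rose in Dox−. Hes1 (Entrez ID 15205, chromosome 16, 30064470 to 30067882, plus strand) had 83 copies in Dox+ and 215 in Dox−, or 13.9 and 36.8 TPM, a fold change of 2.65 (2.05 to 3.46). Ranked in the same way, it went from percentile 49.0 to 73.3. Hey1 (chromosome 3, 8663362 to 8667039, minus strand), a target gene known from endothelium and arteries, had 19 copies in Dox+ and 30 in Dox−, a ratio of 1.62 (0.881 to 3.04) that did not differ beyond counting error. The rise of Hes1 was larger than the difference of Notch1: Hes1 had 0.297 copies per copy of Notch1 in Dox+ and 0.554 in Dox−, a ratio of 1.86 (1.37 to 2.54). The balance of Hes1 to Hey1 changed by 1.64 (0.823 to 3.2), within counting error.

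**Figure D2:**
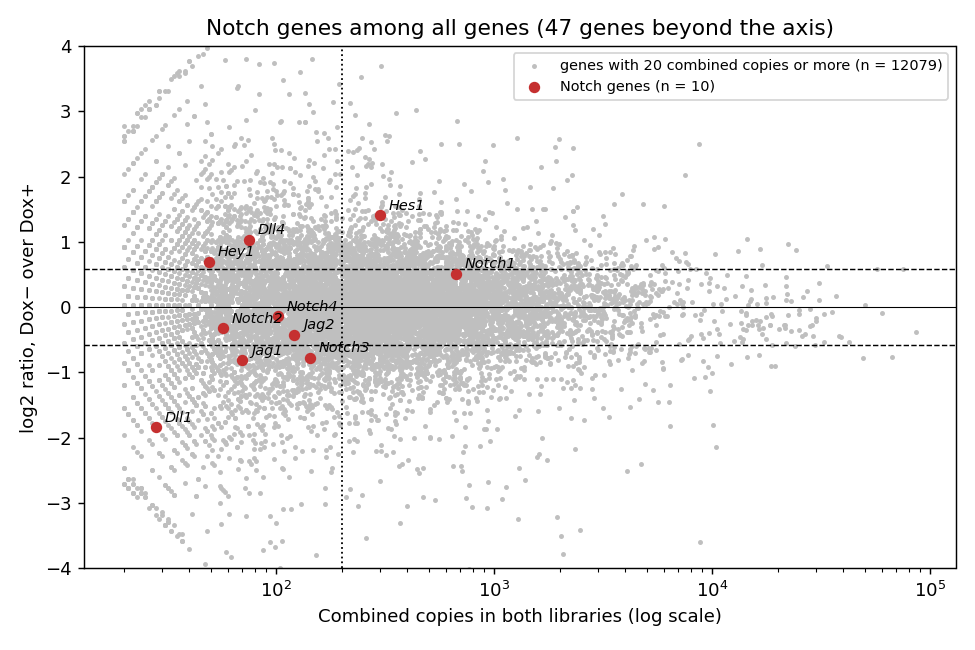
The log2 ratio, Dox− over Dox+, against the combined copies of both libraries (log axis) for 12079 genes with at least 20 combined copies (grey) and the 10 Notch genes (red). The dotted line marks 200 combined copies and the dashed lines a fold change of 1.5. Hes1 is the Notch gene to the right of the dotted line and past a dashed line, and 47 genes lie beyond the axis.

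The order of the genes by level was compared per length, since library preparation with fragmentation is mentioned in the sample descriptions and longer transcripts could then give more tags. TPM values were divided by the length of the longest GENCODE coding transcript in kb. In Dox+ the order was Hes1 with 9.45 TPM per kb, Notch1 with 4.91 and Jag2 with 2.89, followed by Notch3 with 1.89. Hey1, Notch4, Jag1, Dll4 and Dll1 came next at 1.44 to 1.03, with intervals that all overlap, and Notch2 was last at 0.509. The intervals of Hes1, Notch1 and Jag2 do not overlap one another, while those of Jag2 and Notch3 do. In Dox− the order was Hes1 with 25.1, Notch1 with 7.0, Hey1 with 2.33, Dll4 with 2.28 and Jag2 with 2.15. The intervals of Hey1, Dll4 and Jag2 overlap, and Notch4, Notch3 and Jag1 followed at 1.25, 1.11 and 0.762. Notch2 at 0.407 and Dll1 at 0.287 were lowest, so that Dll4 stood among the lowest ligands in Dox+ and beside Jag2 at the top of them in Dox−. This order holds only if tags scale with transcript length, which is not settled, since tag profiling would give each transcript the same weight. Without the division Notch1 came before Hes1 in both libraries, with 46.6 against 13.9 TPM in Dox+ and 66.4 against 36.8 in Dox−. Undivided, Notch3 also came before Hes1 in Dox+ at 15.2 TPM, and Hey1 at 5.13 TPM came after Notch3, Jag2, Dll4 and Notch4 in Dox−. The place of Dll4 among the ligands was the same on both scales in Dox+. In Dox− Dll4 came just before Jag2 per kb and just after it undivided, at 8.56 against 8.73 TPM.

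Other genes of the pathway were followed with a hand-written list of 67 genes, of which 61 were in the table and 38 had at least 200 combined copies. Of these 38, 4 rose and 8 fell, and 26 were not called. The 10.5% that rose and 21.1% that fell compare with 15.2% and 14.7% of all genes, and the median log2 ratio of the 38 was -0.10. With the intervals in place of the call, 16 of 56 genes lay above 1, 20 below 1 and 20 spanned it, against 28.5% above and 26.2% below over all genes.

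The list of other targets had the most calls, and the genes went both ways. Of 9 targets in the table, 6 had enough copies, 3 fell and 1 rose, against 14.7% and 15.2% of all genes. Sox9, a transcription factor of gland epithelium and progenitor cells, rose from 51 to 220 copies, 4.42-fold (3.24 to 6.12). Id2 and Id1, inhibitors of bHLH factors that also respond to BMP signals, fell from 1933 to 888 copies and from 563 to 294, 2.12-fold and 1.87-fold. Hes6, a relative of Hes1 that is known to oppose it, fell from 285 to 182 copies (1.53-fold, 1.27 to 1.85), a call lost when libraries were scaled to their summed copies. Below the minimum for a call, Heyl, a target gene of smooth muscle and vessels, had 74 copies in Dox+ and 29 in Dox−, 2.49-fold lower (1.60 to 3.97). Hey2, known from arteries and the heart, had 22 and 18, within counting error. Genes of the Hes and Hey families therefore did not share a direction: Hes1 rose, Hes6 fell, Heyl had fewer copies, and Hey1 and Hey2 were not resolved. Ccnd1, a cell cycle gene, and Myc had log2 ratios of -0.14 and -0.28 and were not called.

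Genes that cut the receptor had log2 ratios above 0 throughout. With at least 200 combined copies there were 5 of them, and 1 was called higher and 0 lower. Over all genes 15.2% were called higher and 14.7% lower. Of the 7 with at least 20 combined copies, 4 had an interval above 1 and none below it, against 28.5% and 26.2% of all genes with as many copies. Ncstn, a subunit of γ-secretase, rose from 86 to 126 copies, 1.5-fold (1.13 to 2.0), right at the threshold, and it fell short of 1.5 under TMM or median-of-ratios scaling, where 3 pathway genes rose. Adam10, the sheddase that makes the first ligand-induced cut, had 541 and 647 copies, a ratio of 1.22 (1.09 to 1.38), and Aph1a, another γ-secretase subunit, 522 and 538. Adam17, a related sheddase, had 51 and 87 copies, too few for a call.

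In the nuclear complex, Rbpj, the DNA-binding partner of Notch, had 373 copies in Dox+ and 463 in Dox−, a ratio of 1.27 (1.11 to 1.46) without a call. The Mastermind coactivators differed among themselves. Maml1 fell from 180 to 92 copies, 1.91-fold (1.48 to 2.48), and Maml2 rose from 68 to 148, 2.23-fold (1.66 to 3.02), while Maml3 had 29 and 12. Tle1, a Groucho corepressor that Hes proteins recruit, fell from 197 to 87 copies, 2.21-fold. Ctbp1 and Snw1, the genes of this group with the most copies, had ratios of 0.829 and 1.07. Of the 14 genes with enough copies, 1 rose, 2 fell and 11 were not called, against 15.2% higher and 14.7% lower of all genes.

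Among the ubiquitin ligases and inhibitors, the Deltex genes Dtx2 and Dtx3, whose products bind the Notch intracellular domain, fell from 218 to 109 and from 350 to 185 copies, 1.95-fold and 1.85-fold. Dtx1, itself a known Notch target, had 82 and 30 copies and Dtx4 333 and 246, with both intervals below 1. Itch, a ligase that marks Notch for breakdown, rose from 276 to 442 copies, 1.64-fold (1.41 to 1.91). Nedd4 had the most copies of this group, 3824 and 3427, and was not called. Nrarp, a target gene whose product feeds back on the Notch intracellular domain, had 32 and 19 copies, within counting error. Fbxw7, the ligase that ends the nuclear signal, had 35 and 11 copies, and Neurl1a, a ligase for ligands, 82 and 26, 3.11-fold and 3.08-fold lower.

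Among the 5 glycosyltransferases that tune which ligands a receptor hears, 3 had at least 200 combined copies, and none of these was called. Over all genes with as many copies 29.9% were called. All 5 intervals spanned 1, while 54.7% of the 12079 genes with at least 20 combined copies had one apart from 1. Pofut1, which adds the O-fucose, had 151 and 138 copies, Poglut1 131 and 121, and the fringe gene Lfng 107 and 97. Of the other ligand-like genes, Egfl7, a secreted endothelial protein that can bind Notch receptors, fell from 255 to 140 copies, 1.78-fold (1.44 to 2.20). Mfap5 and Mfap2, microfibril proteins reported to bind Notch or Jagged, had ratios of 1.12 and 0.973. Dlk1, Dlk2 and Dner had at most 7 copies in a library.

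**Figure D3:**
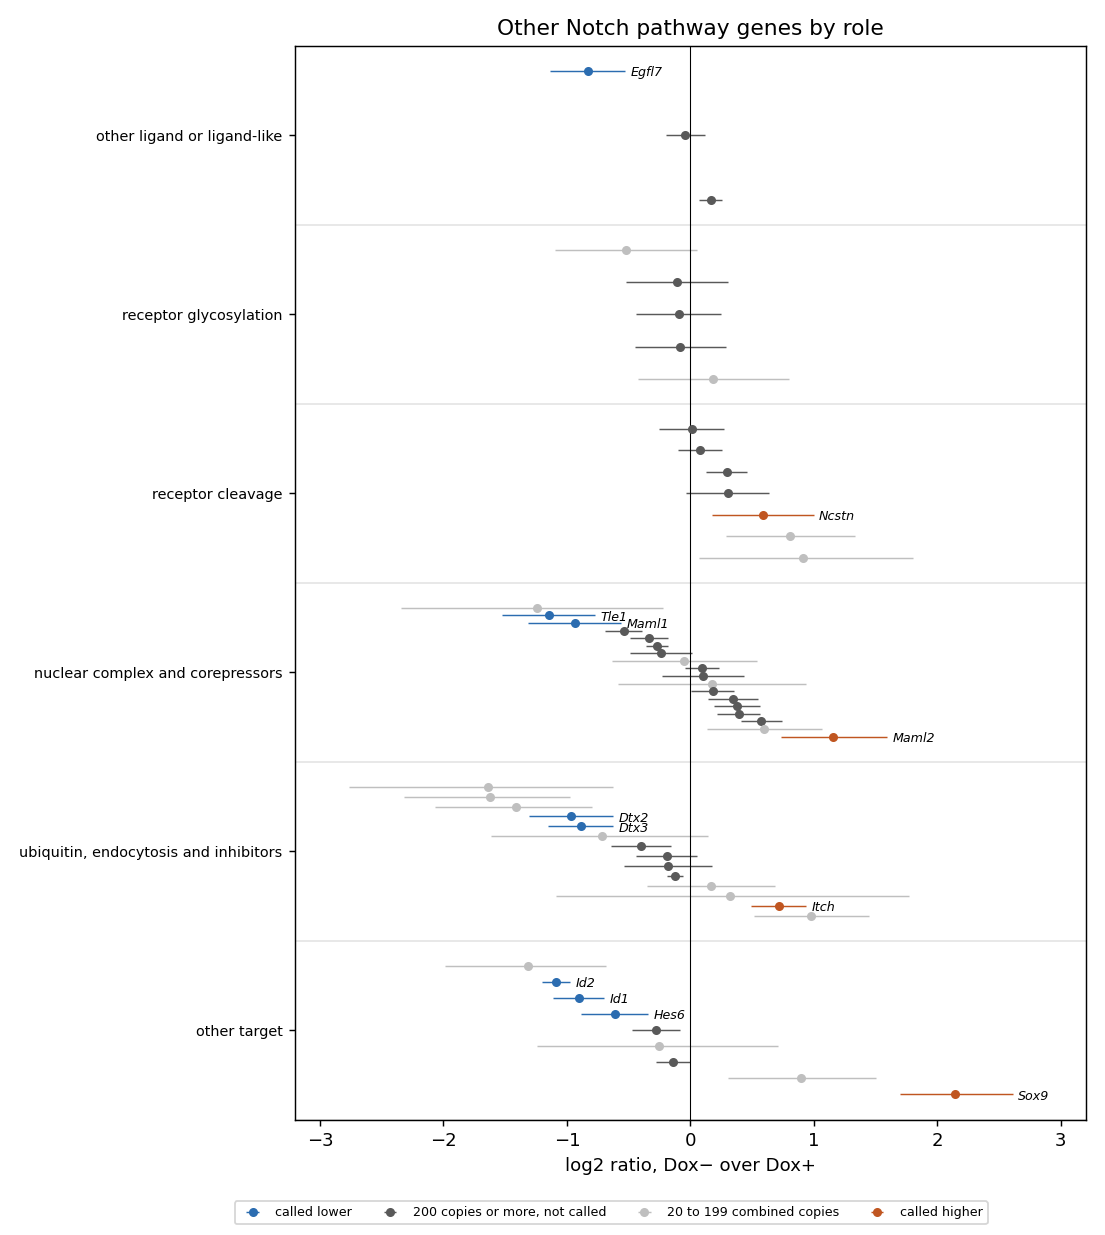
The log2 ratio, Dox− over Dox+, of 56 other Notch pathway genes with at least 20 combined copies, grouped by role, with bars for exact 95% intervals that cover counting error only. Called genes are named and coloured (4 higher in orange, 8 lower in blue); dark grey points had enough copies and were not called, and light grey points had fewer than 200.

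Markers of the cell types that carry Notch genes moved as well, and in bulk tissue fewer cells of a type and less RNA per cell cannot be told apart. Markers of uterine epithelium, stroma and smooth muscle were all present, with no gene of these lists at 0 in either library. The 12 endothelial markers summed to 300.0 TPM in Dox+ and 199.2 in Dox−. Of them 7 had an interval below 1 and none above it, against 26.2% and 28.5% of all genes. Cdh5, the endothelial cadherin, fell from 446 to 216 copies, Tie1 from 191 to 100 and Cldn5 from 152 to 90, beside Egfl7, which this list shares with the ligand-like genes. Pecam1 with 243 and 253 copies and Eng with 92 and 104 did not share this, and Kdr, the main VEGF receptor, had only 10 and 17 copies. All 8 mural and smooth muscle markers had intervals below 1, and Cspg4, Des and Cnn1 were called: Cspg4, of pericytes, fell 2.63-fold from 240 to 89 copies, and the muscle genes Des and Cnn1 1.76-fold and 1.67-fold. Tagln and Myh11, contractile genes of smooth muscle, had the most copies of that list, 11417 and 8854 for Tagln and 4609 and 3169 for Myh11, and were not called.

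Epithelial markers were split, and their sum went from 1092 to 1244 TPM. Krt7 rose from 179 to 600 copies and Epcam from 467 to 821, Krt19 and Krt8 had the most copies and ratios of 1.35 and 1.14, and the tight junction genes Cldn3 and Cldn4 fell from 1482 to 494 and from 149 to 65. In the stroma list Hand2, Hoxa11, Hoxa10 and Vim fell, by 6.72-fold, 3.2-fold, 2.87-fold and 1.52-fold, and Lum and Pgr rose 1.84-fold and 1.86-fold. In the artery list Sox17, also a gene of uterine epithelium, fell from 1991 to 585 copies. Efnb2 and Nrp1 had ratios of 1.35 and 1.26, and Gja4 and Acvrl1 had ratios of 0.665 and 0.816. Among the 5 artery markers with at least 20 combined copies, 2 had an interval above 1 and 2 below it. The shares over all genes were 28.5% and 26.2%. The tip cell markers had no common direction, with Apln at 92 and 32 copies and Angpt2 at 41 and 14 against Cxcr4 at 40 and 66 and Esm1 at 10 and 24, and Nid2 and Pdgfb, the 2 with the most copies, were not called. Leukocyte markers summed to 96.2 and 119.3 TPM. Of the 6 with at least 20 combined copies, 4 had an interval above 1 and 1 below it, against 28.5% and 26.2% of all genes. Tyrobp and Csf1r had the most copies, with ratios of 0.767 and 0.997, while Ptprc had 49 and 130 copies and Itgam 45 and 97. The 4 red cell genes found in the table, led by the near-identical Hba-a1 and Hba-a2, between which tags may be split, summed to 66 and 208 copies. Hba-a1 and Hba-a2 made this sum higher, while Alas2, the heme synthesis enzyme of red cells, went the other way with 21 and 9 copies. The part of these shifts in the values of the Notch genes was not tested.

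**Figure D4:**
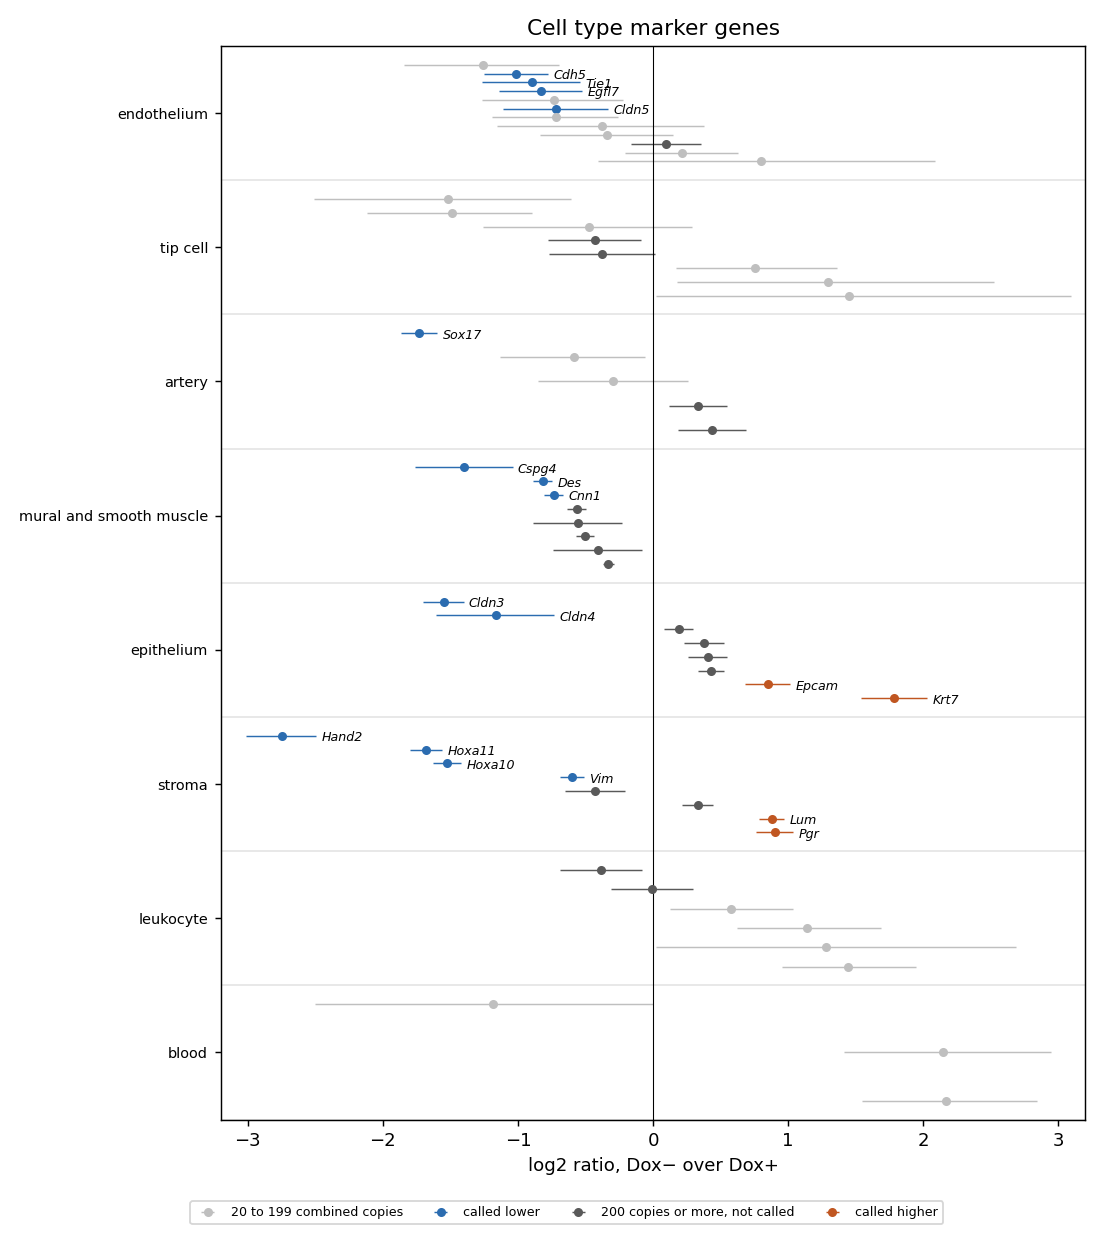
The log2 ratio, Dox− over Dox+, of cell type marker genes with at least 20 combined copies, by list, with bars for exact 95% counting intervals and colours as in the plot of pathway roles. All 8 mural and smooth muscle markers lie below 0, and 7 of 12 endothelial markers have a bar below 0.

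To set each Notch gene beside the cells that may carry it, its copies were also divided by the summed copies of a marker list in the same library. Against the endothelial sum, Dll4 had 1.39 copies per 100 marker copies in Dox+ and 4.30 in Dox−, a ratio of 3.09 (1.86 to 5.23). Hey1 had 1.06 and 2.58 per 100, a ratio of 2.44 (1.32 to 4.60), so that its interval lay above 1 on this scale and not on that of the clean tags. Notch4 had 3.01 and 4.12 per 100, and its ratio of 1.37 (0.903 to 2.08) still spanned 1. Notch1 had 15.5 and 33.3 per 100, a ratio of 2.15 (1.80 to 2.55). The endothelial sum mixes 7 markers with an interval below 1 and 5 whose interval spanned 1. Cdh5, with the most copies, is of the first kind, and Pecam1, with a ratio of 1.07, is of the second. Ratios of the Notch genes to Pecam1 alone were not computed.

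Against the mural and smooth muscle sum, Notch3 had 0.299 copies per 100 marker copies in Dox+ and 0.253 in Dox−, a ratio of 0.843 (0.588 to 1.20). The difference of Notch3 was thus within counting error of that of this sum, most of which came from the contractile genes Tagln, Cnn1, Des, Myh11 and Acta2. Against Cspg4 alone, the marker of pericytes, Notch3 had a ratio of 1.54 (0.989 to 2.39), in the other direction and spanning 1. Jag1 too was within counting error of the mural and smooth muscle sum, with a ratio of 0.820 (0.482 to 1.37). It had 0.857 (0.501 to 1.44) against the endothelial list, but against the epithelial list it was lower at 0.50 (0.293 to 0.833). Jag2 was lower against the epithelial list too, at 0.655 (0.447 to 0.955). Against the epithelial sum, which was higher in Dox−, Hes1 kept a ratio of 2.33 (1.80 to 3.04), Notch1 1.25 (1.06 to 1.47) and Dll4 1.80 (1.09 to 3.04). Hes1, Notch1 and Dll4 had intervals above 1 against each of the 4 lists and the clean tags. Dll1 had a ratio below 1 against each, with an interval that reached past 1 for the endothelial and the muscle lists. The endothelial, mural and smooth muscle, and stroma sums were themselves lower in Dox−, with ratios of 0.664, 0.694 and 0.736. A ratio to any of these sums is therefore higher than the ratio to the clean tags. The leukocyte sum, with a ratio of 1.24, was not used as a reference. The epithelial sum mixes 6 markers with an interval above 1 and 2 with one below it, Cldn3 and Cldn4. Krt7 alone rose 3.43-fold, more than any Notch gene, and ratios to single epithelial markers were not computed.

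**Figure D5:**
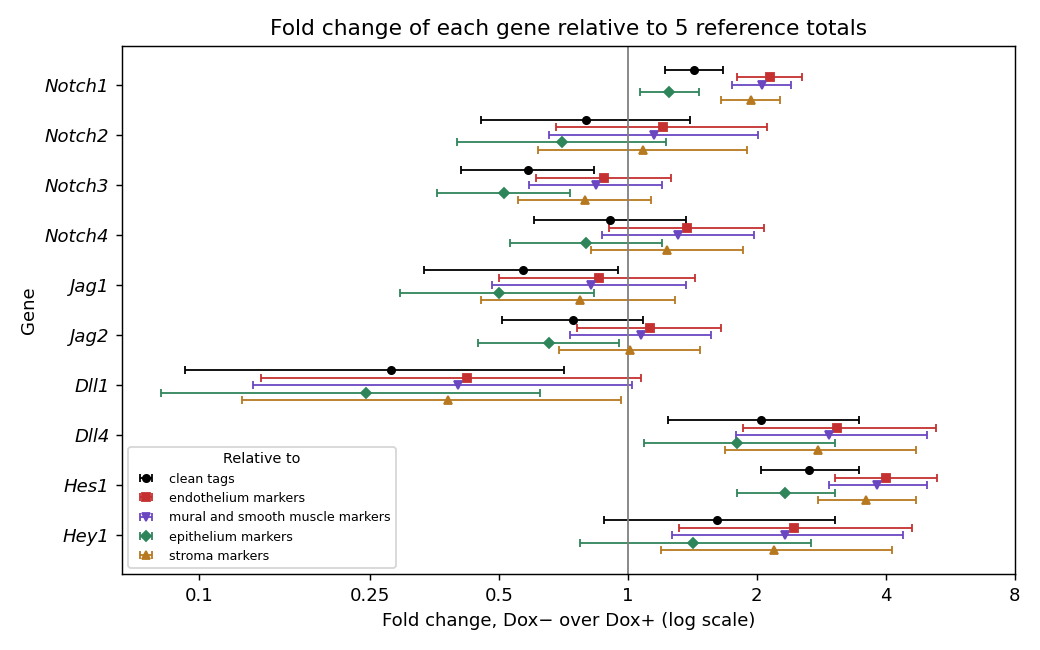
Fold change, Dox− over Dox+ (log axis), of each Notch gene relative to the clean tags (black) and to the summed copies of the endothelium, mural and smooth muscle, epithelium and stroma marker lists, with exact 95% intervals that cover counting error only. Hes1, Notch1 and Dll4 lie right of 1 on all 5 scales, and Notch3 and Jag1 have bars across 1 when set beside endothelial, mural or stromal markers.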

How the data were processed

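RNA was pooled from 3 uteri for each condition and sequenced as DGE tags by the authors, with 1 library per condition. Tags that were adaptor-only, of low quality or seen once were removed by the authors, who matched the rest to mouse reference transcripts (mm9) and deposited unambiguous tag counts per gene. The sample descriptions mention fragmented mRNA instead, a difference that was not resolved, and CASAVA is named in the submitters' processing notes. The deposited TPM values are each tag count per 1000000 clean tags without length correction, and they were used to recover the clean tags of each library. The authors' log2 ratio, ratio, P-value and FDR columns hold their own comparison and were not used.

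Fold changes are ratios of tag shares between libraries with exact Clopper-Pearson intervals, and within-library ratios carry exact conditional intervals (both 95%). No fold change was given where both libraries had 3 or fewer copies. PCR copies of a tag are not independent molecules, so intervals cover counting error only. Calls used the Audic-Claverie test, which the study's methods name, with Benjamini-Hochberg adjustment over all 14678 genes. The code was tested on simulated data. The Notch genes, the gene lists and the tests were chosen with earlier results of these data known. The text names all 10 Notch genes, each called gene of a list, the 2 genes with the most copies of each list or role, and Vegfa. Other genes were named after their values were seen. Some genes of the pathway list are not reported here. Positions are on NCBIM37 (GENCODE), the assembly of mm9, and promoter windows on GRCm38.p6 (RefSeq). Python 3.11.15, scipy 1.17.1, R 4.3.3 and edgeR 4.0.16 (alternatives alone) were used.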

Additional observations from a re-analysis of the deposited data

How the results depend on the processing

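The call of Hes1 was kept under all scalings, Fisher's exact test, a fold change of at least 2 and an assumed coefficient of variation between pools of 0.1 or 0.2 in edgeR, and was lost at 0.4, where 0 Notch genes were called. How much pools of uteri vary could not be measured here. With a minimum of 20 combined copies or none, 2 Notch genes (Hes1 and Dll4) were called higher and 2 (Notch3 and Dll1) lower. With an absolute log2 ratio above 0.5, the cutoff of the study's methods, 2 were called higher, Notch1 being added. Over all genes that cutoff called 1231 higher and 1168 lower. The paper also counts 1231 up-regulated genes, and its count of down-regulated genes is slightly below 1168. By intervals alone, an alternative chosen after seeing the data, 3 were higher and 3 lower.

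Of the other pathway genes, 3 were called higher under TMM and median-of-ratios scaling, without Ncstn. Scaled to the summed copies, 7 were called lower, without Hes6, and the stroma marker Vim also fell short of a 1.5-fold change. There were 8 higher and 13 lower with a minimum of 20 copies or none, 2 and 2 at a fold change of at least 2, 1 and 0 at an assumed coefficient of variation of 0.2, 0 and 0 at 0.4, and 16 and 20 by intervals. Over all genes the counts were 1925 and 1887 with a minimum of 20, or 15.9% and 15.6% of 12079 genes. They were 2044 and 2077 with none, 302 and 368 at a fold change of at least 2, 147 and 174 at 0.2, 16 and 17 at 0.4, and 3442 and 3166 by intervals. A lower minimum tests more genes, and the cause of the other changes was not tested. All 10 fold changes stayed within their intervals under the 3 scalings and a pseudocount of 1. Set to marker lists, which were added after seeing the data, the ratios of Notch2, Notch4 and Jag2 passed from below 1 to above it against the endothelial, mural and stroma lists, with all intervals spanning 1, and Jag2 had an interval below 1 against the epithelial list (0.655, 0.447 to 0.955). No paired analysis was possible because each condition has 1 library, and for the same reason no library could be left out.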

Other observations

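The GO column of the deposited table assigns 8 genes to the Notch signaling pathway, a list looked up after the data had been seen. Besides Notch1, Notch3, Rbpj, Dtx1 and Dtx4 it holds Il6st, the gp130 receptor chain of LIF signaling, which rose from 569 to 1050 copies (1.89-fold, 1.70 to 2.10), Postn, a matrix protein of stroma, which fell from 1334 to 325 copies, and Rbm15, an RNA-binding protein with 8 and 21 copies. Of the 5 genes with at least 200 combined copies, 1 rose and 1 fell. For all 8 genes the interval lay apart from 1, 4 above it and 4 below it, against 54.7% of the 12079 genes with at least 20 combined copies.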
